A study of Mus musculus with 32 samples.

Results

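Chemokines are small secreted or membrane-anchored proteins that bind receptors on leukocytes and guide their migration. Cxcl1 and Cxcl2 attract neutrophils through the receptor Cxcr2, whereas Ccl2, Ccl7 and Ccl8 attract monocytes and other leukocytes through Ccr2 and related receptors, and Ccl9 acts through Ccr1. Cxcl10 is induced by interferons and attracts activated T cells through Cxcr3. Cxcl12, Cxcl16 and Cx3cl1 are made by resting tissue, Cxcl12 as a retention signal for Cxcr4-bearing cells and Cxcl16 and Cx3cl1 as membrane-tethered proteins that are released by shedding.

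The 10 chemokine genes Cxcl1, Cxcl2, Ccl2, Ccl7, Ccl8, Ccl9, Cxcl10, Cxcl12, Cxcl16 and Cx3cl1 were chosen by name and were all found among the 54532 genes of the count table. RNA was sequenced from the kidney of wt C57bl/6 mice, aged 6 to 8 weeks, that received a single injection of 20 mg/kg cisplatin, a platinum drug that injures the kidney tubule and causes acute kidney injury (AKI). Kidneys were taken on Day 0, Day 2, Day 3 and Day 5 from male and from female mice, with 4 mice in each of the 8 groups, 32 libraries in all. The mice of Day 0 are taken as healthy, as their description has them, although the treatment label of the female ones reads cisplatin and that of the male ones is empty. The comparisons below ask how the neutrophil, monocyte, interferon-induced and constitutive chemokines changed with time after cisplatin, and whether male and female mice differed. The values are for whole kidney, so fewer cells of a type and less RNA per cell cannot be told apart.

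The libraries held between 16502107 and 35961325 counts. Mitochondrial transcripts took between 4.87% and 14.03% of the counts on Day 2 and Day 3 and between 4.49% and 24.0% on Day 0. They took between 42.5% and 79.8% in the 4 male Day 5 libraries and between 9.30% and 77.9% in the 4 female ones, and 6 of the 32 libraries exceeded 25%. Xist, a transcript of the inactive X chromosome, had 4153 counts in the library labelled male Day 5 mouse 1, whereas the other male libraries held between 0 and 260 and the female libraries between 1323 and 14054. Counts of Uty, Kdm5d, Ddx3y and Eif2s3y, 4 genes of the Y chromosome, summed to 387 in that library and to 447, 545 and 491 in the other Day 5 males. They summed to 221, 5, 44 and 66 in the healthy females, to 0 in every other female library and to between 1367 and 3195 in the other males, and the part of this in comparisons with the healthy females was not tested. Male and female Day 0 mouse 3 had reads in 17985 and 16265 genes. The other libraries of Day 0 to Day 3 had reads in between 21188 and 25410 genes. Levels below are CPM, counts scaled by the effective library size. Markers of kidney tubule were abundant in every library, their 6 genes summing to between 2189 and 10249 CPM. The 5 erythroid markers summed to between 411 and 2653 CPM in the healthy mice, between 7.002 and 163 CPM on Day 2 and between 0.811 and 78.0 CPM on Day 3. Of these, 5 of 5 were lower as DEGs in males on Day 3 (3.72% of all genes tested were DEGs) and in females on Day 2 (1.41%) and Day 3 (2.48%). The 4 adrenal cortex markers summed to between 2.98 and 233 CPM in healthy females, and to 1270 and 1572 CPM in female Day 3 mice 3 and 4. In male Day 2 mouse 2 they summed to 372 CPM. The 4 hepatocyte markers summed to 9400 CPM in female Day 0 mouse 2 and to between 12.6 and 347 CPM in every other library. The part of these tissues in the chemokine values was not tested. Lcn2, a gene for an injury protein of the tubule, was a differentially expressed gene (DEG) in males on Day 3 and Day 5 and in females on Day 3. Havcr1, the other injury gene listed, was a DEG against Day 0 in females on Day 3 only. On Day 3 it was also a DEG between the sexes, lower in males (log2 difference −3.60, SE 0.86, edgeR adjusted p = 0.0248). The part of injury in the sex comparisons below was not tested.

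In the GRCm38 coordinates of the table, 5 members lay on chromosome 11 and 3 on chromosome 5. Cxcl1 (chr5:90891241-90893115, plus strand) and Cxcl2 (chr5:90903871-90905938, plus strand) were neighbours, 10755 bases apart, and Cxcl10 (chr5:92346638-92348889, minus strand) lay 1440699 bases beyond Cxcl2. Ccl2 (chr11:82035571-82037453), Ccl7 (chr11:82045712-82047525) and Ccl8 (chr11:82115185-82116799) lay on the plus strand within a stretch of 81229 bases that also held Ccl11 and Ccl12. Ccl9 (chr11:83572919-83578636) and Cxcl16 (chr11:70453983-70459984) lay elsewhere on chromosome 11 on the minus strand, Cxcl12 (chr6:117168535-117181367) on chromosome 6 and Cx3cl1 (chr8:94772009-94782427) on chromosome 8, both on the plus strand. Cxcl10 overlapped Art3 and Cxcl16 overlapped Zmynd15, each on the opposite strand, and without a statement of how strand was used in counting the reads of these pairs cannot be assigned to one gene alone. Of the stretches of 50 bases in the annotated transcripts of Cxcl2, 5.84% also occurred in Cxcl3, and for Ccl9 1.97% occurred in other genes, whereas none did for the other 8 members.

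The proximal promoters are shown for Cxcl1 and Cxcl10, the members called as DEGs and higher, and for Cxcl2, the neighbour of Cxcl1. Each stretch below holds the bases from 230 to 31 before the RefSeq transcription start (GRCm38.p6), read 5′ to 3′ on the strand of the gene. Capitals mark matches to the NF-κB motif, to AP-1 (TGANTCA) and to the interferon-stimulated response element ISRE, each searched on both strands.
Cxcl1 (chr5:90891015-90891214, plus strand): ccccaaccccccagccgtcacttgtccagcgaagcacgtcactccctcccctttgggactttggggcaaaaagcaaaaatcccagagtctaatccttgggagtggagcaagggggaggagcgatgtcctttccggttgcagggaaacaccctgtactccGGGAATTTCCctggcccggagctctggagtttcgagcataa
Cxcl2 (chr5:90903669-90903868, plus strand): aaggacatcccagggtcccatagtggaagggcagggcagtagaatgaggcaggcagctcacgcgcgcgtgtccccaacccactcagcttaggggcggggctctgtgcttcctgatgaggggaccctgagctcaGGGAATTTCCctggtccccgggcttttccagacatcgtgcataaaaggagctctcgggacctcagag
Cxcl10 (chr5:92348920-92349119, minus strand): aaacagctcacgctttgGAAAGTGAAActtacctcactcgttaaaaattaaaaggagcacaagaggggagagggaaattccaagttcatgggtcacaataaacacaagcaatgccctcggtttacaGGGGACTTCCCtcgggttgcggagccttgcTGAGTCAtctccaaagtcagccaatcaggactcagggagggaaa

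Promoter windows of 250 bases before to 50 bases after the start were found for 7 of the 10 members, and those of Ccl2, Ccl7 and Cxcl16 were not used here. The NF-κB motif was present in 4 of the 7, in Cxcl1, Cxcl2, Ccl9 and Cxcl10, and in 5.8% of all 32851 promoter windows. In Cxcl1 it lay between 71 and 62 bases before the start and in Cxcl2 between 97 and 88 bases before it, within a run of 14 bases that both promoters share. In Cxcl10 a pair of overlapping matches formed a single run. AP-1 was matched in Ccl9 and Cxcl10 (7.81% of all windows), ISRE in Cxcl10 alone among the 7 (3.44%) and the TATA motif (TATAAA) in Ccl8, Ccl9 and Cx3cl1 (13.6%). Cxcl12 held none of the 4 motifs in this window. A match is a description of the letters and not of binding.

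**Figure D1:**
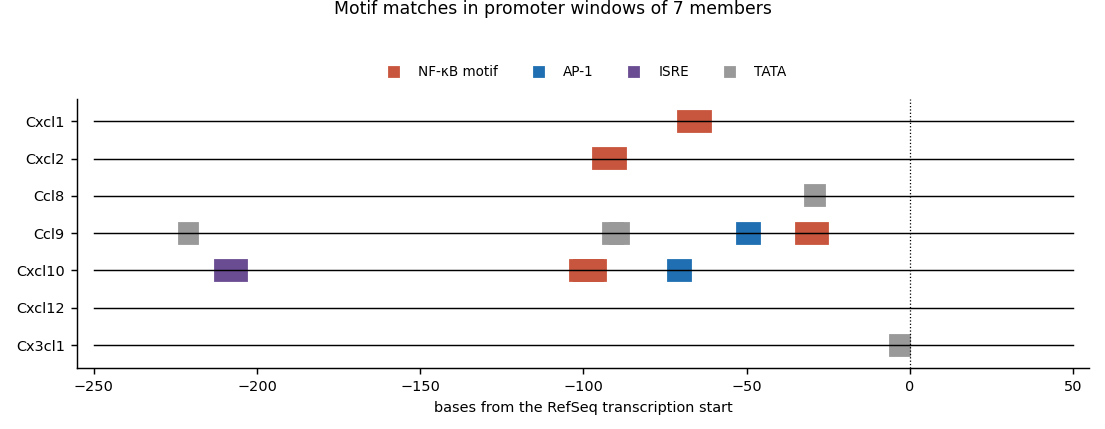
Positions of motif matches in the promoter windows of 7 chemokine genes, plotted as bases from the RefSeq transcription start (x axis), 1 line per gene, with boxes coloured by motif. Cxcl1 and Cxcl2 each hold a single NF-κB match, Cxcl10 holds NF-κB, AP-1 and ISRE matches, and Cxcl12 holds none.

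In healthy kidney the constitutive class made up most of the summed FPKM of the 10 genes, 77.9% in the healthy male with the lowest share. Per unit of gene length, in the deposited FPKM (fragments scaled by gene length and library size), the Day 0 level of Cxcl16 was 18.0 ± 10.6 in males (SD, n = 4) and 22.7 ± 10.3 in females. Cx3cl1 had 15.97 ± 1.79 FPKM in males and 14.4 ± 1.54 FPKM in females, and Cxcl12 had 13.1 ± 2.13 and 14.3 ± 1.83 FPKM. These 3 genes held the first 3 ranks in both sexes, and their order among themselves was within the spread between mice. Ccl8 followed at 2.10 ± 2.21 FPKM in males and 2.36 ± 1.41 FPKM in females, and Cxcl2 was the lowest at 0.0518 ± 0.0491 and 0.0201 ± 0.0223 FPKM. Cxcl1 held rank 8 on Day 0 in both sexes and rank 5 on Day 3 in both sexes.

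**Figure D2:**
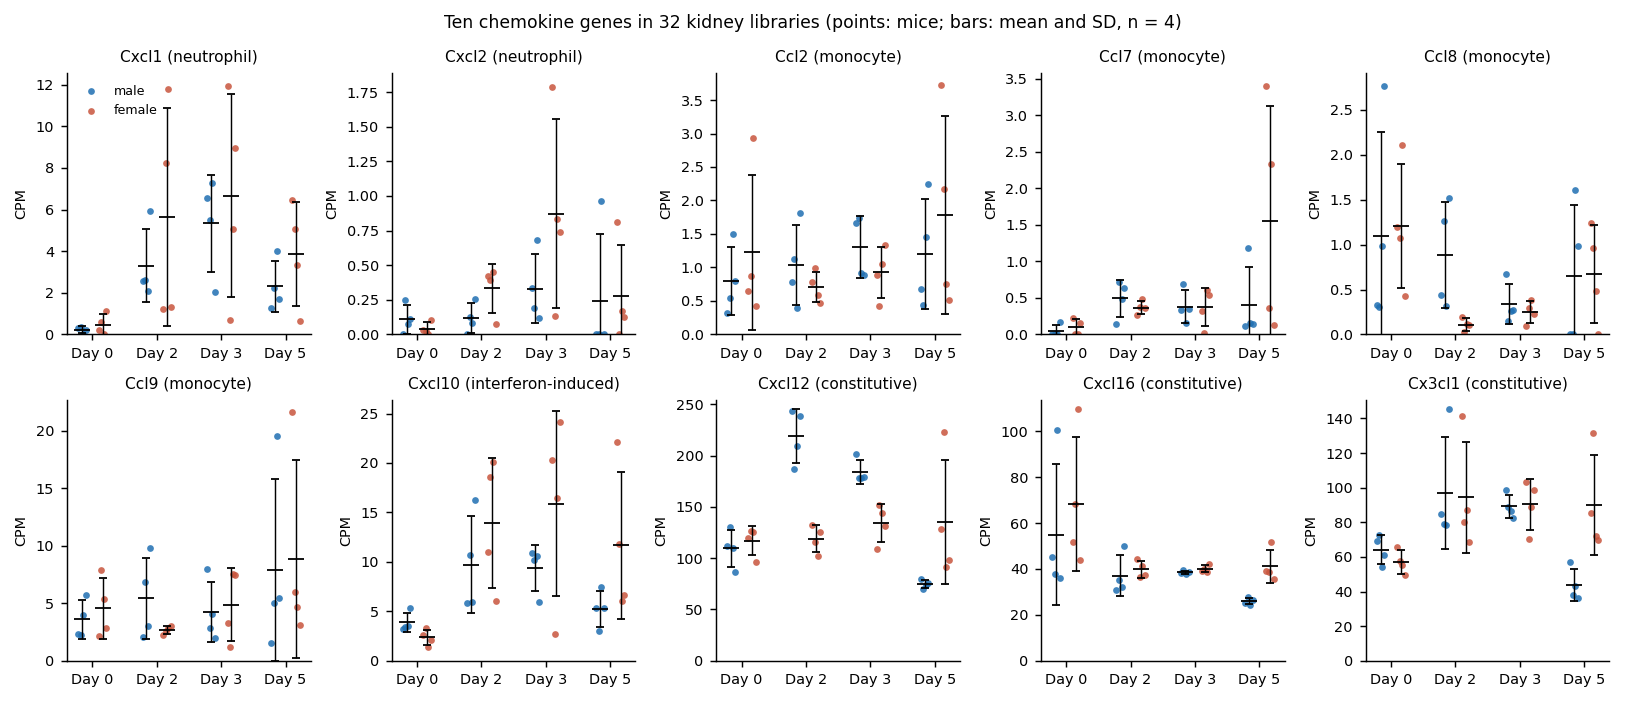
Level of each chemokine gene (y axis, CPM, each panel from 0 on its own scale) on each day (x axis) in male and female mice. Points are single mice and bars are the mean and SD of 4 mice, cut at 0 where the SD is larger than the mean; Cxcl1 and Cxcl10 sit above their Day 0 points in most treated mice, whereas Ccl2 overlaps on every day.

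Of the 10 members, 8, 7 and 6 had enough reads to be tested in males on Day 2, Day 3 and Day 5 against Day 0, and 8 were tested on each day in females. A DEG was a gene with an adjusted p under 0.05 and a log2 fold change beyond 1.5 in either direction in edgeR's quasi-likelihood test, adjusted by Benjamini-Hochberg over all genes tested. In males 1 member was a DEG on Day 2 (0.716% of all genes tested were), 1 on Day 3 (3.72%) and 0 on Day 5 (7.53%). In females 2 members were DEGs on Day 2 (1.41%), 1 on Day 3 (2.48%) and 0 on Day 5 (0.228%). The DEGs were Cxcl1 in males on Day 2 and Day 3, Cxcl10 in females on Day 2 and Day 3, and Ccl8, the only one to fall, in females on Day 2. At an adjusted p under 0.05 with no fold threshold the counts were 2 and 4 in males on Day 2 (3.16% of genes tested) and Day 3 (24.5%), and 2 and 1 in females (1.93% and 5.54%), with 0 on Day 5 in both sexes (19.2% in males and 0.258% in females). On Day 5 36.1% of genes tested in males and 15.7% in females had an unadjusted p under 0.05, and DESeq2 called 0 members in males and 2, Cxcl1 and Cxcl10, in females, where it called 9.41% and 2.45% of the genes to which it gave an adjusted p. Among the members tested, mice of a day did not overlap with the healthy mice for 4 in males on Day 2 and 4 on Day 3, all higher (12.3% and 20.9% of all genes tested), and for 2 on Day 5, both lower (16.1%). In females this held for 3 higher and 1 lower on Day 2 (8.66% and 6.64%), 1 higher and 2 lower on Day 3 (10.1% and 9.16%) and 2 higher on Day 5 (4.97%). Of the members with too few reads to be tested, Cxcl1 in males on Day 5, Ccl7 in females on Day 2 and Cxcl2 in females on Day 3 were also higher without overlap. The median log2 fold change of the members tested was 0.60 in males on Day 2, 0.68 on Day 3 and 0.01 on Day 5, and −0.37, 0.13 and 0.61 in females, beside medians between 0.02 and 0.04 over all genes tested.

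**Figure D3:**
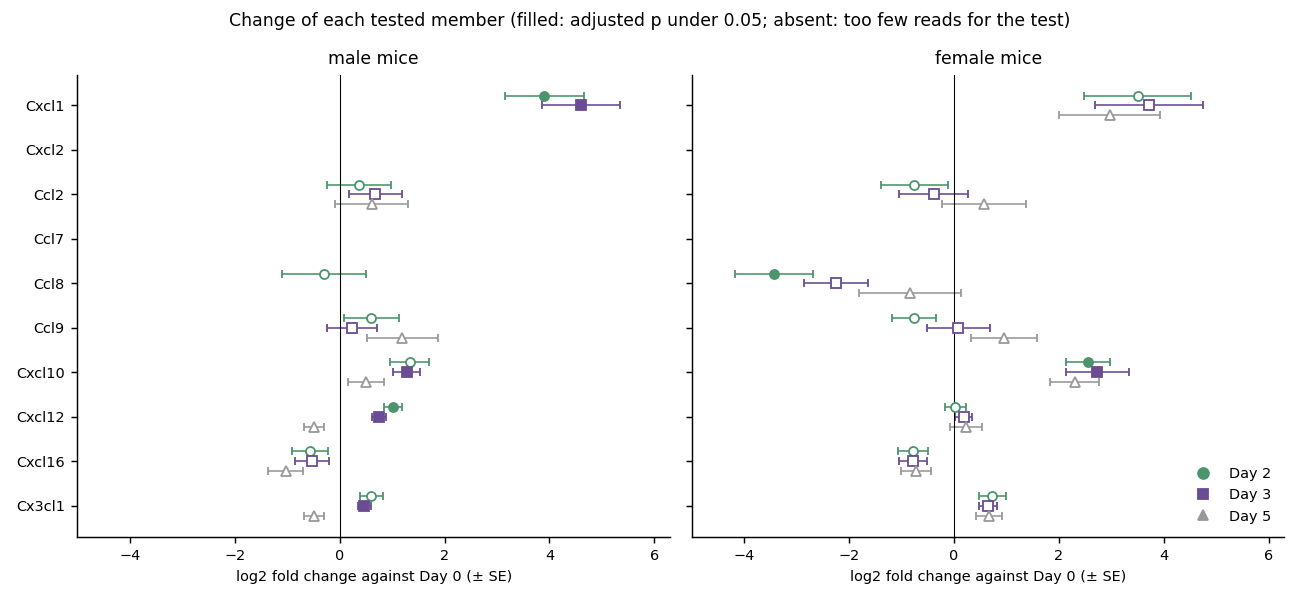
Change of each tested chemokine gene against Day 0 (x axis, log2 fold change with its SE) on Day 2, Day 3 and Day 5 in males (left) and females (right), 4 mice a group. Filled symbols passed an adjusted p of 0.05 and missing symbols had too few reads; Cxcl1 lies near a log2 change of 4 and Cxcl10 is higher in females, while Ccl2 and Cxcl16 have no filled symbol.

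Cxcl1 was a DEG in male mice on Day 2 and Day 3, from very few reads in healthy kidney. In males it was at 0.326, 0.350, 0 and 0.230 CPM on Day 0 in mice 1 to 4, from no more than 7 counts a library. It was at 2.58, 2.62, 2.09 and 5.92 CPM on Day 2 and at 6.55, 5.52, 7.29 and 2.02 CPM on Day 3. Every treated male on both days lay above every healthy male. The log2 fold change was 3.91 (SE 0.76, adjusted p = 0.0402, quasi-likelihood test of edgeR, Benjamini-Hochberg adjusted) on Day 2 and 4.604 (SE 0.74, adjusted p = 0.00819 by the same edgeR test) on Day 3. Healthy males gave Cxcl1 no library above the filter on low counts, and 4 of 4 treated libraries on each day were above it. The gene was therefore tested only because it was high after cisplatin, so its call is not independent support, and with at least 10 counts asked of every library it was not tested. On Day 3 Cxcl1 stayed a DEG in 8 of 8 fits that left out 1 mouse each. On Day 2 it stayed so in 2 of 8, without male Day 0 mouse 3 (edgeR adjusted p = 0.00871) or mouse 4 (0.0323), while the log2 change ranged from 3.41 to 4.23. Leaving out any of the other 6 libraries gave an edgeR adjusted p from 0.0843, without male Day 2 mouse 1, to 0.129, without male Day 2 mouse 3. Leaving out male Day 0 mouse 1 or mouse 2, or male Day 2 mouse 2 or mouse 4, gave 0.0901, 0.104, 0.126 and 0.0862.

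In females Cxcl1 was as high but uneven between mice. It was at 0.227, 0.577, 0 and 1.11 CPM on Day 0, at 1.24, 8.25, 11.8 and 1.34 CPM on Day 2 and at 11.9, 0.692, 5.06 and 8.95 CPM on Day 3. On Day 2 all 4 treated females were above all healthy ones, with mice 1 and 4 close to the highest healthy female, and on Day 3 mouse 2 fell within the healthy range. That mouse also had less of the tubule injury genes, with Lcn2 at 10.4 CPM beside 60.5 to 190 CPM in the other Day 3 females and Havcr1 at 3.84 CPM beside 17.0 to 72.9 CPM. Its tubule marker sum was 9517 CPM beside 4479 to 5747 CPM and its erythroid sum 78.0 CPM beside 3.13 to 7.31 CPM, and the part of these in its Cxcl1 and Cxcl10 levels was not tested. The log2 fold change was 3.50 (SE 1.02, edgeR adjusted p = 0.0795) on Day 2 and 3.72 (SE 1.03, edgeR adjusted p = 0.0581) on Day 3, so neither passed in edgeR. In females too Cxcl1 passed the filter on low counts only through the treated mice, with 4 of 4 of them and 2 of 4 healthy ones above it on each day, so the calls that follow are not independent support. Without female Day 0 mouse 4, the healthy female with the most Cxcl1, both became DEGs at 4.27 (edgeR adjusted p = 0.0262) and 4.49 (0.0181). The Wald test of DESeq2 gave an adjusted p of 0.0286 on Day 2 and 0.00109 on Day 3, days on which it called 5.24% and 5.82% of all genes as DEGs.

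On Day 5 Cxcl1 was between the Day 0 and Day 3 means. Males had 1.29, 2.23, 4.03 and 1.68 CPM and females 6.48, 5.05, 3.33 and 0.643 CPM. All 4 males, mouse 1 with the Xist counts among them, were above every Day 0 male, and 3 of 4 females were above every Day 0 female. In males the gene had too few counts to be tested against Day 0, between 12 and 25 a library, and in females the log2 change was 2.96 (SE 0.97, edgeR adjusted p = 0.214). In females it became a DEG without Day 0 mouse 4, at 3.75 (edgeR adjusted p = 0.0405), and without Day 5 mice 1 and 2, both over 25% mitochondrial, it was 2.03 (0.780). Healthy females had 7, 21, 0 and 41 Cxcl1 counts, and as on Day 2 and Day 3 the call is not independent support. Across the 8 groups the order of the mean CPM ran from females on Day 3 and Day 2 through males on Day 3, females on Day 5, and males on Day 2 and Day 5 to the Day 0 groups, and neighbours among the 6 treated groups overlapped in their mice.

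Cxcl2, the second neutrophil chemokine, was near the limit of counting. No library had more than 72 counts, and 7 of the 32 had 0. In females it was at 0.0324, 0.0275, 0 and 0.108 CPM on Day 0, at 0.423, 0.393, 0.452 and 0.0722 CPM on Day 2 and at 1.79, 0.134, 0.832 and 0.741 CPM on Day 3. All 4 Day 3 females were above all Day 0 females, and on Day 2 mouse 4 lay among the healthy ones. In males it was at 0, 0.250, 0.0730 and 0.115 CPM on Day 0 and at 0.334, 0.193, 0.684 and 0.117 CPM on Day 3, which overlap. The filter on low counts left Cxcl2 out of all 6 comparisons with Day 0, so these differences carry no test. In all 8 groups the mouse with the most Cxcl2 was also the mouse with the most Cxcl1, as a description of 4 mice a group. For Cxcl1 with Cxcl10 this was so in 4 of 8 groups, and for Cxcl1 with Ccl2 in 2 of 8.

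Ccl2, the monocyte chemokine best known for recruiting Ccr2-bearing cells, was not a DEG in any of the 16 comparisons. In males it was at 0.326, 0.550, 1.496 and 0.805 CPM on Day 0, at 0.790, 1.13, 0.402 and 1.81 CPM on Day 2 and at 1.67, 1.74, 0.912 and 0.894 CPM on Day 3. In females it was at 0.649, 0.880, 2.94 and 0.432 CPM on Day 0, at 0.781, 0.994, 0.593 and 0.469 CPM on Day 2 and at 0.893, 0.424, 1.06 and 1.34 CPM on Day 3. The groups overlapped on every day in both sexes. Its log2 change in males was 0.37 (SE 0.61) on Day 2 and 0.68 (SE 0.51) on Day 3, and in females −0.76 (SE 0.64) and −0.39 (SE 0.65), with edgeR adjusted p between 0.344 and 0.710. Female Day 0 mouse 3 decided the sign in females, since without it the log2 changes were 0.15 on Day 2 and 0.49 on Day 3. Without male Day 2 mouse 4 the male Day 2 change was −0.051, and without male Day 0 mouse 3 the male Day 3 change was 1.22 (edgeR adjusted p = 0.0497, below the fold threshold). Mouse 3 of Day 0 had, in each sex, the fewest genes with reads of Day 0 to Day 3. The part of this in the Ccl2 values was not tested.

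Within a library the balance of counts between Cxcl1 and Ccl2, a ratio chosen after the values were seen, lay toward Cxcl1 on Day 2 and Day 3, as a description with no test. The log2 ratio of their counts, with 0.5 added to each, was −2.17 ± 2.89 in healthy males (SD, n = 4) and −1.91 ± 3.54 in healthy females, with a highest value of 1.33. It was 1.73 ± 0.46 in males and 2.36 ± 1.62 in females on Day 2, and 1.94 ± 0.77 and 2.35 ± 1.26 on Day 3. The lowest healthy values, −6.38 in males and −6.92 in females, were those of mouse 3 of each sex, with 0 Cxcl1 counts. All 16 libraries of Day 2 and Day 3 held more Cxcl1 counts than Ccl2 counts, the lowest log2 ratio being 0.65. Counts are not divided by gene length, 1875 bases for Cxcl1 and 1138 for Ccl2. In FPKM Ccl2 was the higher in female Day 2 mouse 1 (0.667 against 0.641) and female Day 3 mouse 2 (0.370 against 0.366). On Day 5 the log2 ratio was 1.02 ± 1.07 in males, with a lowest value of −0.40, and 1.11 ± 0.76 in females. The log2 ratio of Ccl2 to Cxcl12 kept overlapping ranges, with means of −7.25 in healthy and −7.19 in Day 3 males and −6.95 and −7.26 in females.

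Of the other monocyte chemokines only Ccl8 was called against Day 0, while Ccl9 was not called and Ccl7 was not tested. Ccl8, a ligand of Ccr2 and other receptors on monocytes and lymphocytes, was a DEG, lower, in females on Day 2. It was at 1.20, 1.07, 2.11 and 0.432 CPM in healthy females, at 0.195, 0.0231, 0.113 and 0.108 CPM on Day 2 and at 0.0992, 0.290, 0.382 and 0.228 CPM on Day 3. Every female on both days was below every healthy female. The log2 change was −3.43 (SE 0.74, edgeR adjusted p = 0.0479) on Day 2, from 14 counts in the 4 Day 2 libraries, and −2.25 (SE 0.61, edgeR adjusted p = 0.0562) on Day 3. On Day 2 no treated female library was above the filter on low counts and 4 of 4 healthy ones were, so Ccl8 was tested only because it was high on Day 0 and its call is not independent support. With at least 10 counts asked of every library it was not tested. Without female Day 0 mouse 4 the Day 3 change was a DEG at −2.53 (0.00850), and there too Ccl8 passed the filter only through the healthy females, 4 of 4 against 2 of 4. The Day 2 call held in 2 of 8 fits with a mouse left out, without female Day 0 mouse 3 (edgeR adjusted p = 0.0427) or mouse 4 (0.00501). Leaving out female Day 0 mouse 1 or 2 gave 0.0827 and 0.128, and leaving out female Day 2 mouse 1, 2, 3 or 4 gave 0.0986, 0.177, 0.158 and 0.107. In males Ccl8 was at 0.326, 0.300, 0.985 and 2.76 CPM on Day 0 and at 0.439, 1.26, 0.321 and 1.52 CPM on Day 2, which overlap. On Day 3 males were at 0.667, 0.154, 0.266 and 0.272 CPM, so 3 of the 4 were below every healthy male. On Day 5 they were at 0, 0, 1.61 and 0.983 CPM.

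Ccl7 had almost no reads in healthy kidney. In males it had 0, 0, 0 and 3 counts on Day 0, and 5, 22, 12 and 17 counts on Day 2. All 3 healthy counts came from mouse 4, at 0.173 CPM, above Day 2 mouse 1 at 0.146 CPM. Over the 4 libraries of each day the ratio to Day 0 in CPM was 13.3 on Day 2 (95% exact interval 4.32 to 66.3), 10.6 on Day 3 (3.37 to 53.7) and 8.77 on Day 5 (2.37 to 48.4), intervals that cover counting error only. On Day 5 mouse 2 held 8 of the 12 counts, and without it the ratio was 3.56 (0.602 to 24.3). In females it was at 0.227, 0, 0 and 0.162 CPM on Day 0 and at 0.260, 0.370, 0.480 and 0.361 CPM on Day 2, all above the healthy females. On Day 3 females had 0.322, 0.0223, 0.607 and 0.541 CPM, with mouse 2 in the healthy range. On Day 5 females had 3.40, 0.361, 2.33 and 0.129 CPM, so 2 of the 4 mice held the highest levels of the series. The filter left Ccl7 out of the 6 comparisons of a day with Day 0, and in the interactions of sex and day its edgeR adjusted p was 0.99992 and 0.969.

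Ccl9, a ligand of Ccr1, passed no test. Its mean was 3.59 ± 1.66 CPM in healthy males and 4.56 ± 2.63 CPM in healthy females. The highest means were on Day 5, at 7.90 ± 7.93 CPM in males and 8.85 ± 8.60 CPM in females. There 1 mouse of each sex stood far above the rest, male mouse 3 at 19.5 CPM and female mouse 1 at 21.6 CPM. On Day 2 the 4 females lay between 2.28 and 3.00 CPM, within the healthy range of 2.14 to 7.89 CPM.

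Cxcl10, with reads in every healthy female, rose in females on Day 2 and Day 3. It was at 2.63, 3.299, 1.42 and 2.08 CPM in healthy females, at 10.97, 18.6, 20.1 and 6.06 CPM on Day 2 and at 20.3, 2.68, 16.5 and 24.1 CPM on Day 3. All 4 Day 2 females were above all healthy females, and on Day 3 mouse 2, which was also the lowest for Cxcl1, lay within the healthy range. The log2 change was 2.56 (SE 0.42, edgeR adjusted p = 0.0220) on Day 2 and 2.73 (SE 0.60, edgeR adjusted p = 0.0478) on Day 3. The Day 2 call was kept without female Day 0 mouse 3 (edgeR adjusted p = 0.0229) or mouse 4 (0.00489) or female Day 2 mouse 4 (0.0101). It was lost without female Day 0 mouse 1 or 2 (0.0675 and 0.0620) and without female Day 2 mouse 1, 2 or 3 (0.0757, 0.0947 and 0.0956). The Day 3 call was kept without female Day 0 mouse 4 (0.0189) or female Day 3 mouse 2 (0.00539) and lost without female Day 0 mouse 1, 2 or 3 (0.0932, 0.137 and 0.0749) or female Day 3 mouse 1, 3 or 4 (0.168, 0.163 and 0.126), all by the same edgeR test. Without female Day 3 mice 3 and 4, the libraries with over 1000 CPM of adrenal cortex markers, the Day 3 change was 2.29 (edgeR adjusted p = 0.428), no longer a DEG.

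In males Cxcl10 was not a DEG, and its change did not pass against that of females (interaction of sex and day, edgeR adjusted p = 0.99992 on Day 2 and 0.668 on Day 3). It was at 3.26, 3.40, 3.50 and 5.35 CPM on Day 0, at 5.88, 10.6, 5.98 and 16.3 CPM on Day 2 and at 10.9, 10.2, 10.6 and 5.95 CPM on Day 3. Every treated male of both days was above every healthy male. The log2 change was 1.33 (SE 0.37, edgeR adjusted p = 0.0684) on Day 2 and 1.28 (SE 0.26, edgeR adjusted p = 0.0146) on Day 3, the latter below the fold threshold. The Day 3 value passed the adjusted p in 5 of 8 fits with a mouse left out, and was just above 0.05 without male Day 3 mouse 1 (0.0508), 2 (0.0505) or 3 (0.0574). On Day 2 it became a DEG without male Day 0 mouse 4, at 1.53 (edgeR adjusted p = 0.0422). On Day 5 males were at 5.31, 2.97, 7.41 and 5.33 CPM, a log2 change of 0.51 (SE 0.35, edgeR adjusted p = 0.321). Females on Day 5 were at 22.1, 11.8, 6.07 and 6.65 CPM, all above the healthy females, with a log2 change of 2.30 (SE 0.47, edgeR adjusted p = 0.0912). It became a DEG there without female Day 0 mouse 4, at 2.24 (edgeR adjusted p = 0.0229). Without female Day 5 mice 1 and 2 it was 1.43 (0.672).

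Cxcl12, the constitutive ligand of Cxcr4, was higher in males on Day 2 and Day 3 and did not pass the test in females. Healthy males had 112, 130.5, 109.6 and 86.5 CPM, and males had 243, 187, 209.6 and 238 CPM on Day 2 and 201, 178, 178 and 179 CPM on Day 3. The lowest treated male was above the highest healthy male on both days. The log2 change was 1.01 (SE 0.17, edgeR adjusted p = 0.0314) on Day 2 and 0.75 (SE 0.14, edgeR adjusted p = 0.0113) on Day 3, below the fold threshold both times. The Day 3 value passed the adjusted p in 8 of 8 fits with a mouse left out. The Day 2 value passed in 2 of 8, without male Day 0 mouse 3 (edgeR adjusted p = 0.0110) or mouse 4 (0.0237), and without male Day 0 mouse 1 or 2 or male Day 2 mouse 1, 2, 3 or 4 it was 0.0893, 0.0906, 0.0745, 0.0966, 0.108 and 0.0667. Healthy females had 119.8, 126, 126 and 96.1 CPM, and females had 133, 116, 103 and 125 CPM on Day 2 and 109, 151, 144 and 132 CPM on Day 3, so the groups overlapped. The log2 change in females on Day 3 was 0.18 (SE 0.17, edgeR adjusted p = 0.468).

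No member was a DEG between males and females on Day 0, Day 2, Day 3 or Day 5 in edgeR or DESeq2, where 0.362%, 0.813%, 1.93% and 0.236% of genes tested were by edgeR and 1.25%, 1.51%, 2.23% and 3.38% by DESeq2. On the same days 8.04%, 15%, 36.7% and 20.3% of genes had an unadjusted p under 0.05. Between the sexes Cxcl12 was the only member to pass an adjusted p under 0.05 on any day. It was higher in males than in females by a log2 difference of 0.87 (SE 0.15, edgeR adjusted p = 0.0180) on Day 2, where 1.47% of genes tested passed, and of 0.43 (SE 0.11, edgeR adjusted p = 0.0192) on Day 3, where 21.3% passed. All 4 males were above all 4 females on both days. The Day 3 value passed in 8 of 8 fits with a mouse left out, and with all 8 groups in a single fit the edgeR adjusted p was 0.407. Without female Day 3 mice 3 and 4 it was 0.46 (edgeR adjusted p = 0.0931). On Day 2 it was lost without male mouse 1 or 3 (0.0751 and 0.0655) or without female mouse 2, 3 or 4 (0.0826, 0.0899 and 0.0515). The change with cisplatin itself, as the interaction of sex and day, differed by 0.96 (SE 0.25, edgeR adjusted p = 0.652) on Day 2 and 0.54 (SE 0.21, edgeR adjusted p = 0.601) on Day 3, so a difference of response between the sexes was not shown by edgeR. The Wald test of DESeq2 gave the Day 2 interaction of Cxcl12 an adjusted p of 0.0282, where 0.133% of genes passed. No member passed either interaction in edgeR, which 0% of genes did on Day 2 and 0.0114% on Day 3 (4.23% and 7.11% at an unadjusted p under 0.05). The 5 endothelial markers summed to between 284 and 351 CPM in Day 2 males and between 192 and 259 CPM in healthy males, and to between 316 and 330 CPM in Day 3 males and between 204 and 276 CPM in Day 3 females. They summed to between 195 and 276 CPM in Day 2 females and between 179 and 277 CPM in healthy females. In Day 5 males, where Cxcl12 was between 69.8 and 79.9 CPM, they summed to 219, 355, 362 and 458 CPM. Their part in the Cxcl12 values was not tested.

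Cx3cl1, the membrane-tethered ligand of Cx3cr1, passed the adjusted p against Day 0 in males on Day 3, below the fold threshold. Males had 69.2, 72.7, 54.0 and 61.0 CPM on Day 0, 84.7, 78.9, 78.3 and 145 CPM on Day 2 and 98.6, 88.7, 86.8 and 82.6 CPM on Day 3. Females had 65.6, 57.9, 55.2 and 49.3 CPM on Day 0, 141, 80.2, 87.4 and 68.7 CPM on Day 2 and 103, 70.4, 88.7 and 98.8 CPM on Day 3. In both sexes all treated mice of these days were above all healthy mice. The log2 change was 0.60 (SE 0.22, edgeR adjusted p = 0.117) and 0.47 (SE 0.12, edgeR adjusted p = 0.0266) in males, and 0.73 (SE 0.25, edgeR adjusted p = 0.115) and 0.65 (SE 0.17, edgeR adjusted p = 0.0530) in females, on Day 2 and Day 3. The male Day 3 value missed 0.05 without any of the 4 Day 3 males (0.0798, 0.0744, 0.0782 and 0.0577 for mice 1 to 4), and the female Day 3 value passed without female Day 0 mouse 4 (0.0223) or female Day 3 mouse 2 (0.0497).

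Cxcl16, which binds Cxcr6, passed no test on Day 2 or Day 3 against Day 0. Healthy males had 45.4, 37.9, 101 and 36.1 CPM and healthy females 51.8, 68.1, 109.5 and 43.9 CPM. On Day 3 males had 38.1, 39.4, 37.8 and 38.5 CPM and females 39.2, 40.2, 38.7 and 42.2 CPM. The Day 3 males lay within the healthy range and the Day 3 females below every healthy female. The Day 3 mice were tightly grouped, while Day 2 males were at 30.7, 35.3, 32.01 and 50.03 CPM, and in each sex mouse 3 of Day 0 was far above the others. Those Day 0 libraries had the fewest genes with reads of Day 0 to Day 3, 17985 in the male and 16265 in the female. Their erythroid sums, 2150 and 2653 CPM, were the highest of Day 0, and the part of this in Cxcl16 was not tested. The log2 change was −0.52 (SE 0.32, edgeR adjusted p = 0.248) in males on Day 3, and −0.78 (SE 0.28, edgeR adjusted p = 0.124) and −0.78 (SE 0.27, edgeR adjusted p = 0.0909) in females on Day 2 and Day 3, none of which passed. Without male Day 0 mouse 3 the male Day 3 change was −0.04, and without female Day 0 mouse 3 the female ones were −0.44 and −0.46. Without female Day 0 mouse 4 the female changes were −0.94 on both days (edgeR adjusted p = 0.0201 and 0.0128, below the fold threshold). Among the sheddases of these tethered ligands, Adam10 passed the adjusted p in males on Day 3 (from 43.5 ± 2.35 to 58.4 ± 2.32 CPM, edgeR adjusted p = 0.0185), while Adam17 did not.

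On Day 5 the constitutive members were low in males. Cxcl12 was at 79.9, 69.8, 74.1 and 75.4 CPM, Cxcl16 at 25.3, 27.6, 24.5 and 26.7 CPM and Cx3cl1 at 57.1, 37.9, 43.4 and 36.5 CPM. Against Day 3 all 4 Day 5 males lay below all Day 3 males for each gene, with log2 changes of −1.21 (SE 0.11, edgeR adjusted p = 0.00119), −0.47 (SE 0.09, edgeR adjusted p = 0.00620) and −0.94 (SE 0.15, edgeR adjusted p = 0.00351). These 3 of the 7 members tested passed the adjusted p, as did 37.9% of all genes tested, and none passed the fold threshold (9.64% did). Without the library labelled male Day 5 mouse 1 the 3 log2 changes were −1.26, −0.48 and −1.11. Cxcl1 had a log2 change of −1.18 (SE 0.47, edgeR adjusted p = 0.0741) and became a DEG without male Day 5 mouse 3, at −1.59 (0.0391). Against Day 0 the male changes were −0.49 (SE 0.19, edgeR adjusted p = 0.0904) for Cxcl12, −1.03 (SE 0.34, edgeR adjusted p = 0.0575) for Cxcl16 and −0.49 (SE 0.19, edgeR adjusted p = 0.0956) for Cx3cl1. Some of these passed the adjusted p, still below the fold threshold, with 1 mouse left out. Without the library labelled male Day 5 mouse 1, Cx3cl1 was at −0.63 (edgeR adjusted p = 0.0267). Without male Day 0 mouse 4, Cxcl12 was at −0.60 (0.0452) and Cxcl16 at −1.20 (0.0343), and without male Day 0 mouse 3 Cxcl16 was at −0.54 (0.0355). All 4 of these libraries had over 25% mitochondrial counts, so that the day and this property of the libraries cannot be told apart in males. Other properties moved with them. Between healthy and Day 5 males the tubule marker sums went from between 7000 and 9756 CPM to between 2189 and 5742 CPM. Without the library labelled male Day 5 mouse 1, 4 of the 6 tubule markers had log2 changes below 0. There Lrp2 and Slc34a1 were DEGs, lower, and Aqp2 was a DEG, higher. The adrenal cortex sums went from between 0.730 and 15.3 CPM to between 23.6 and 118 CPM, with 3 of 4 adrenal markers higher as DEGs (7.53% of all genes tested were DEGs). Without that library 1 of the 4, Star, was a DEG. The erythroid sums were between 204 and 5501 CPM in Day 5 males, and the adipocyte sums between 185 and 603 CPM, beside 78.7 to 571 CPM in healthy males. Their part in the constitutive levels was not tested. Without mitochondrial genes no call among the constitutive members appeared, and Cxcl1 became the 1 DEG of males on Day 5. With all genes Cxcl1 had too few counts for this test. Healthy males had at most 7 Cxcl1 counts a library, so the call comes through the group where it is high and is not independent support.

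Females on Day 5 gave no DEG among the members, and none of the 10 tested passed against Day 3 (0% of genes did, and 11.7% at an unadjusted p under 0.05). Cx3cl1 was at 85.6, 132, 71.8 and 70.04 CPM, a log2 change of 0.66 (SE 0.25, edgeR adjusted p = 0.249) against Day 0, with every mouse above every healthy female, and 0.31 (0.789) without mice 1 and 2. Cxcl16 was at 39.0, 38.5, 51.6 and 35.5 CPM, a log2 change of −0.73 (SE 0.29, edgeR adjusted p = 0.269), and without female Day 0 mouse 4 −0.88 (0.0464, below the fold threshold). Female Day 5 mice 1 and 2, with 31.6% and 77.9% mitochondrial counts, held the highest Cxcl1, Ccl2 and Cxcl10 levels of that group. Adrenal cortex markers summed to between 399.9 and 1012.5 CPM in the Day 5 females, and their part was not tested. Between Day 2 and Day 3 no member passed in either sex (0% of genes did in both, and 8.69% of genes in males and 3.99% in females had an unadjusted p under 0.05).

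The class shares set the groups side by side on a scale that library size cannot move, the share of the summed FPKM of the 10 genes. The neutrophil class took 0.344% ± 0.227 in healthy males and 0.573% ± 0.657 in healthy females (SD, n = 4). It took 2.32% ± 0.621 and 4.97% ± 4.34 on Day 2, 4.31% ± 1.81 and 5.57% ± 3.91 on Day 3 and 3.42% ± 1.73 and 2.98% ± 1.60 on Day 5, in males and females in turn. Cxcl10 took 3.27% ± 1.10 in healthy males and 1.90% ± 0.719 in healthy females, 5.55% ± 1.75 and 9.68% ± 4.37 on Day 2, 6.01% ± 1.18 and 9.93% ± 5.30 on Day 3 and 6.03% ± 1.44 and 7.28% ± 3.29 on Day 5. The monocyte class took 7.67% ± 6.32 and 8.30% ± 2.50 on Day 0, 6.47% ± 3.10 and 3.50% ± 0.490 on Day 2, 5.24% ± 1.67 and 4.87% ± 2.21 on Day 3 and 13.6% ± 8.90 and 10.5% ± 7.54 on Day 5, where its means were highest. The constitutive class took 85.7% ± 5.22 and 81.8% ± 8.66 on Day 2 and 84.4% ± 3.82 and 79.6% ± 10.02 on Day 3, from 88.7% ± 7.28 and 89.2% ± 1.58 on Day 0, and 76.9% ± 11.1 and 79.2% ± 11.8 on Day 5. In Day 5 males the monocyte share was 3.37%, 10.6%, 24.4% and 16.1% in mice 1 to 4, and Ccl8 had 0, 0, 10 and 7 counts. Mice 2 to 4 had between 78.9% and 79.8% mitochondrial counts. The summed FPKM of the 10 genes was 39.4 ± 5.43 in Day 5 males and 52.9 ± 9.72 in healthy males. A share also rises when the other classes fall. In Day 5 females the monocyte share was 21.0%, 7.08%, 10.6% and 3.52%. These shares are a description and carry no test.

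**Figure D4:**
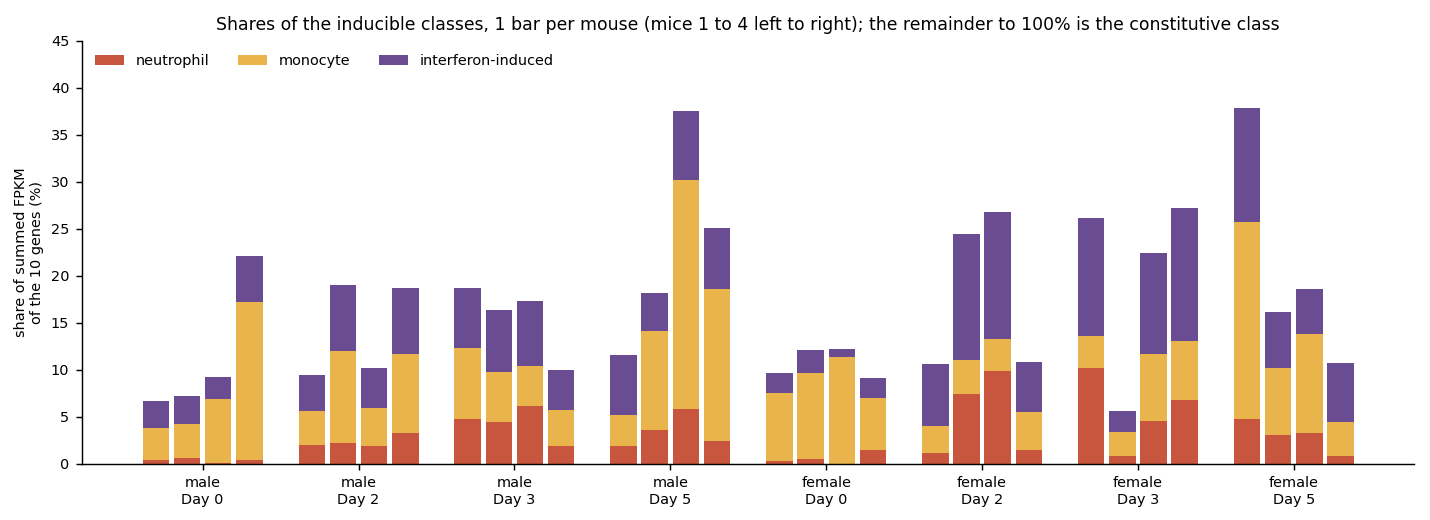
Share of the summed FPKM of the 10 chemokine genes (y axis, %) taken by the neutrophil (Cxcl1, Cxcl2), monocyte (Ccl2, Ccl7, Ccl8, Ccl9) and interferon-induced (Cxcl10) classes, 1 bar for each of 32 mice by sex and day; what is left to 100% is the constitutive class (Cxcl12, Cxcl16, Cx3cl1). The neutrophil share is at most 1.502% on Day 0 and reaches 10.1% in a female on Day 3.

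Markers of the cells that these chemokines attract were measured in the same libraries. The 8 neutrophil markers summed to between 2.75 and 6.67 CPM in healthy males and between 3.05 and 8.08 CPM in healthy females. In Day 2 males they summed to 2.22, 2.82, 1.49 and 8.95 CPM, and the highest, mouse 4, also had the most Cxcl1 and 63.6 CPM of Havcr1. They summed to between 3.05 and 6.76 CPM in Day 3 males, between 2.12 and 8.12 CPM in Day 3 females and between 1.64 and 2.91 CPM in Day 2 females. None of those tested was a DEG on Day 2 or Day 3 in either sex, and Ly6g, a defining neutrophil marker, had at most 2 counts in any library of Day 0 to Day 3. In Day 5 males the sum was between 11.7 and 234 CPM, and 3 of the 4 markers tested were DEGs, all higher (7.53% of all genes tested were DEGs). Without the library labelled male Day 5 mouse 1, 4 of 5 markers tested, Csf3r, Retnlg, S100a8 and S100a9, were DEGs and Mmp9 was not (log2 change 0.71, edgeR adjusted p = 0.490). The share of all genes called without that library is not given here. With all libraries, 2, 2, 3 and 0 of 4 healthy males were above the filter on low counts for S100a8, S100a9, Csf3r and Retnlg, so these calls are not independent support. All 4 Day 5 males had between 42.5% and 79.8% mitochondrial counts. In Day 5 females the sum was between 2.92 and 11.5 CPM. The 12 monocyte and macrophage markers summed to between 158 and 276 CPM in healthy males and between 112 and 151 CPM in Day 3 males. In females they summed to between 144 and 279.8 CPM and between 120.4 and 140.0 CPM. On Day 3 1 of the 12 was a DEG, lower, in each sex (3.72% of all genes tested were in males and 2.48% in females). On Day 5 the 12 markers summed to between 104 and 344 CPM in males and between 105 and 209 CPM in females. There 0 of 12 were DEGs in either sex (7.53% and 0.228% of all genes tested were). Without the library labelled male Day 5 mouse 1, 4 of the 12, Ccr2, Cd68, Ly6c2 and Lyz2, were DEGs, higher, against Day 0, in a fit whose share of all genes called is not given here. There 5 of the 12 had log2 changes below 0, among them Csf1r at −0.66 (edgeR adjusted p = 0.0389, below the fold threshold). The 6 T cell markers, of cells that Cxcl10 attracts, summed to between 4.34 and 9.32 CPM in healthy and between 2.25 and 3.55 CPM in Day 3 males, and to between 5.45 and 12.7 CPM and between 1.97 and 4.78 CPM in females. None of the T cell markers tested was a DEG against Day 0 on any day in edgeR. The part of cell numbers in the chemokine values was not tested.

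**Figure D5:**
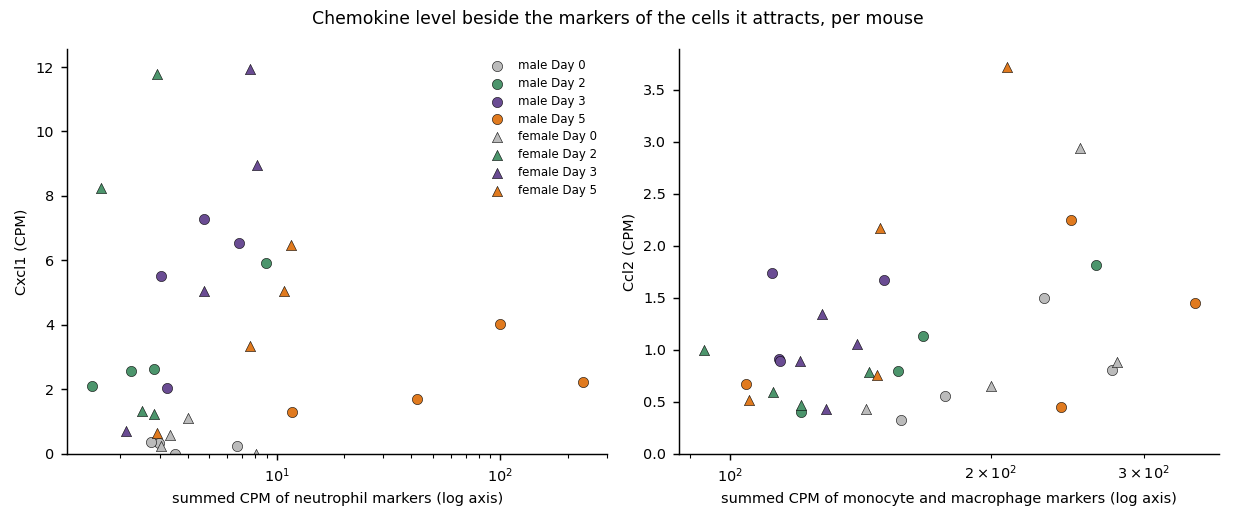
Cxcl1 level (y axis, CPM) against the summed CPM of 8 neutrophil markers (left, log x axis), and Ccl2 level against the summed CPM of 12 monocyte and macrophage markers (right, log x axis), 1 point per mouse, circles for males and triangles for females. Day 2 and Day 3 mice have neutrophil marker sums of at most 8.95 CPM, and the 4 Day 5 males lie between 11.7 and 234 CPM.

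Receptors of leukocytes for the members had few reads. Cxcr2, the receptor of Cxcl1 and Cxcl2, had 0, 0, 0 and 4 counts in healthy males and also in healthy females, 6, 0, 1 and 1 counts in Day 3 males and 14, 9, 11 and 7 counts in Day 3 females. It reached 15, 37, 25 and 9 counts in Day 5 males, a mean of 2.91 ± 2.23 CPM, and was not tested against Day 0 for low counts. Ccr1, a receptor of Ccl7 and Ccl9, was a DEG in Day 5 males, with 0.502 ± 0.363 CPM in healthy and 2.73 ± 1.41 CPM in Day 5 males (log2 change 2.44, SE 0.66, edgeR adjusted p = 0.0325), and without the library labelled mouse 1 the change was 2.71 (edgeR adjusted p = 0.0186). Only 1 of 4 healthy males was above the filter on low counts for Ccr1 and 4 of 4 Day 5 males were, so it was tested only through the group where it is high, and its call is not independent support. Ccr2, the receptor of Ccl2, had 3.25 ± 1.12 CPM in healthy and 8.88 ± 4.78 CPM in Day 5 males (log2 change 1.52, SE 0.48, edgeR adjusted p = 0.0541), and 2.76 ± 0.570 CPM on Day 3. Without that library Ccr2 was a DEG at 1.82 (edgeR adjusted p = 0.00981).

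The receptors of the constitutive members differed in level. Ackr3, the scavenger receptor of Cxcl12, had 44.9 ± 9.05 CPM in healthy and 30.2 ± 5.05 CPM in Day 3 males (log2 change −0.57, SE 0.18, edgeR adjusted p = 0.0454, below the fold threshold). Cxcr4 had 2.50 ± 1.12 and 1.76 ± 0.581 CPM in the same groups and 5.22 ± 1.66 CPM in Day 5 males, where it was a DEG against Day 3, also without the library labelled mouse 1 (log2 change 1.74, edgeR adjusted p = 0.00141). Cx3cr1 had 5.16 ± 2.24 CPM in healthy and 2.99 ± 0.194 CPM in Day 3 males, Cxcr6 1.27 ± 0.828 and 0.438 ± 0.192 CPM, and Cxcr3, the receptor of Cxcl10, 0.552 ± 0.346 and 0.295 ± 0.157 CPM, none of them called. Of the 23 receptors listed, 11 and 9 were tested in males and 12 and 14 in females on Day 2 and Day 3, and none was a DEG on these days. Of all genes tested, 0.716% and 3.72% were DEGs in males and 1.41% and 2.48% in females.

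Of 28 other chemokine ligands, 12 were tested in males on Day 2 and on Day 3 and 13 and 18 in females. In males 0 were DEGs on Day 2 and 1 on Day 3, and in females 2 and 3, where 0.716%, 3.72%, 1.41% and 2.48% of all genes tested were. Cxcl9, which shares the receptor Cxcr3 and interferon induction with Cxcl10 and lies beside it on chromosome 5, fell where Cxcl10 was higher, with log2 changes of −1.88 in males on Day 3 and −2.32 and −2.80 in females on Day 2 and Day 3 (edgeR adjusted p = 0.0111, 0.0498 and 0.0465). Ccl27a, a ligand of Ccr10, fell in females on both days, by log2 changes of −1.82 and −1.80 (edgeR adjusted p = 0.0444 and 0.0478). Ccl28, a mucosal ligand of Ccr10, rose in females on Day 3 from 9.22 to 71.4 CPM (log2 change 2.95, edgeR adjusted p = 0.0465). In Day 5 males 11 of these ligands were tested and 1 was a DEG (7.53% of all genes tested were). It was Ppbp, a platelet chemokine (log2 change 4.65, edgeR adjusted p = 0.0169), from 14, 67, 17 and 32 counts, and without the library labelled mouse 1 the change was 5.02 (edgeR adjusted p = 0.00500). No healthy male was above the filter on low counts for Ppbp, so its call is not independent support. Without that library 12 were tested, and Pf4, higher (log2 change 2.16, edgeR adjusted p = 0.0149), and Ccl28, lower (−2.83, 0.0112), were also DEGs. The share of all genes called in that fit is not given here.

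Over the means of the 8 groups, the genes whose pattern was most like that of Cxcl1 among 14998 genes were Patl1, Pphln1 and Gse1, with Pearson's r of 0.994, 0.992 and 0.990. For Ccl2 they were Dhx57, Safb2 and 5730480H06Rik (0.935, 0.906 and 0.893) and for Cx3cl1 Slc25a34, Fignl2 and Bmp6 (0.992, 0.990 and 0.989). The 8 points share libraries and their depth, and the nearest of so many genes is a description only.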

How the data were processed

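Kidney RNA of 32 mice was sequenced. Per the study's text, reads were aligned to GRCm38 and tested with DESeq2. The submitters' processing notes name HTSeq, DESeq2 and GRCm39. The coordinates in the table match GRCm38. The authors deposited a raw count and an FPKM per gene and library, and how strand was used is not given in the sources used here. Groups were taken from the labels, 4 mice each. The sources do not say more of how the samples were kept apart, so p-values measure the spread between these samples.

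Counts were fitted with edgeR 4.0.16 (limma 3.58.1, R 4.3.3; TMM, filterByExpr, robust quasi-likelihood test, Benjamini-Hochberg over all genes tested), each comparison on its own groups. DESeq2 1.42.0 was an alternative, as were other filters, a joint fit of the 8 groups, a block for mouse number and each mouse left out. The thresholds, an adjusted p of 0.05 and a log2 fold change of 1.5, follow the study, which gives no base for its logarithm, read here as log2. FPKM was used for levels between genes and shares. The fits were tried on counts simulated for males on Day 3 against Day 0, with a single fixed spread between mice. Only genes with enough reads were changed, and recovery and direction were asked for. The trial therefore does not bear on calls from few counts or on libraries that differ more. No pair of libraries was identical. Intervals and floors cover counting error only.

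All 10 members were named, with their receptors, sheddases, other ligands and cell markers from lists. For 3 members the 3 genes with the closest group means were named. The members and lists were chosen with earlier results of these data known.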

Additional observations from a re-analysis of the deposited data

Results flagged for a closer look

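In 11 of 80 tests, each of 1 chemokine in the 4 mice of a group, a single mouse stood apart from the others by Dixon's criterion, which chance meets in about 1 of 20. In males on Day 2, mouse 4 was highest for Cxcl1 at 5.92 CPM (next 2.62) and for Cx3cl1 at 145 CPM (next 84.7). In healthy males, mouse 3 was highest for Cxcl16 at 100.7 CPM (next 45.4), and mouse 4 for Cxcl10 at 5.35 CPM and for Ccl7 at 0.173 CPM. In males on Day 3, mouse 1 was highest for Cxcl12 at 201 CPM and mouse 4 lowest for Cxcl10 at 5.95 CPM. In males on Day 5, mouse 3 was highest for Cxcl2 at 0.967 CPM (the others had 0) and mouse 2 for Ccl7 at 1.19 CPM. In females, mouse 1 of Day 5 was highest for Ccl9 at 21.6 CPM and mouse 4 of Day 2 lowest for Cxcl2 at 0.0722 CPM.

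On Day 5 all 4 males lay below and all 4 females above the Day 0 mean of their own sex for Cx3cl1. The male mean differed from Day 0 by −20.5 CPM. The difference between the sexes in this change was not tested.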

How the results depend on the processing

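The counts of chemokine DEGs were small and moved with the settings. With the size factors of DESeq2 in edgeR all 16 counts stayed within 1.5 times. In males on Day 2 the count was 1, and 2 with no fold threshold, 0 with at least 10 counts in every library and 0 to 3 with a mouse left out. In males on Day 3 it was 1, and 4 with no fold threshold, 0 with the 10-count filter and 1 with any mouse left out. In males on Day 5 it was 0, and 1 with no filter, with all 8 groups in a single fit or without mitochondrial genes, and 0 to 1 with a mouse left out. In females on Day 2 it was 2, and 1 with the 10-count filter and 0 to 4 with a mouse left out. In females on Day 3 it was 1, and 3 with DESeq2, 2 with no filter, 3 with all 8 groups in a single fit and 0 to 4 with a mouse left out, and 0 without the female Day 3 libraries over 1000 CPM of adrenal cortex markers, chosen after seeing the data. In females on Day 5 it was 0, and 2 with DESeq2, 1 with no filter, 3 with all 8 groups in a single fit and 0 to 2 with a mouse left out. Leaving out the female Day 5 libraries over 25% mitochondrial, chosen after seeing the data, kept it at 0. Between males on Day 5 and Day 3 it was 0, and 3 with no fold threshold and 0 to 1 with a mouse left out. Between the sexes it was 0, and 1 with no fold threshold on Day 2 and on Day 3, 1 with no filter on Day 2 and 0 to 1 with a mouse left out on Day 3.

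With the mouse number as a block the count was 0 in males on Day 2 and Day 3 and in females on Day 2 and Day 3, and the other 12 counts did not move. Over all genes the block took the DEGs of these 4 comparisons from 115, 591, 234 and 424 to 5, 53, 52 and 0. In 0 of the 16 comparisons were the deviations of all 4 mouse numbers correlated above 0.1 (r between −0.415 and 0.481). Between males and females on Day 0 numbers 1, 3 and 4 had r of 0.272, 0.444 and 0.481 and number 2 −0.0737. The labels give the number no shared source, so the mice were not treated as pairs. Ccl2 changed sign without female Day 0 mouse 3 (0.15 on Day 2 and 0.49 on Day 3) and without male Day 2 mouse 4 (−0.051). With a mouse left out its log2 change ran from −0.051 to 0.87 in males on Day 2, from −1.04 to 0.15 in females on Day 2 and from −0.67 to 0.49 in females on Day 3.

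Computed from CPM in place of FPKM, the constitutive share was 96.1% in females on Day 0, 94.5% and 91.3% in males and females on Day 2, 93.7% and 90.1% on Day 3 and 89.1% in males on Day 5. The monocyte share was 2.71% in females on Day 0, 2.05% and 1.42% on Day 2 and 1.84% and 2.12% on Day 3. The neutrophil share was 0.878% and 1.69% in males on Day 2 and Day 3, and 1.54% and 1.35% in males and females on Day 5. The Cxcl10 share was 1.68% and 0.961% on Day 0, 2.53% and 5.09% on Day 2, 2.81% in males on Day 3 and 3.19% and 3.90% on Day 5. Within a library these shares differ from those in FPKM only in that CPM does not divide by gene length. Cxcl2 and Ccl7 had too few reads to be tested against Day 0. Leaving the library labelled male Day 5 mouse 1 out of the tests of receptors, markers and other ligands was also chosen after seeing the data.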
